A study of Mus musculus with 8 samples.

Results

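The 9 genes described here are feedback targets of fibroblast growth factor (FGF) and ERK signalling: Dusp6, Spry1, Spry2, Spry4, Spred1, Spred2, Il17rd, Etv4 and Etv5. They were taken by gene symbol from the 48440 genes of the deposited tables, and all 9 were found and passed the filter on low values in every comparison. FGFs bind receptor tyrosine kinases that pass the signal through RAS, RAF and MEK to the kinase ERK. ERK activity switches on genes whose products dampen the same pathway, and also the transcription factor genes Etv4 and Etv5. The level of these genes is widely used as a readout of the signal. In the fetal mouse gonad Fgf9 is a growth factor of the XY gonad that acts through Fgfr2 and holds down the ovarian programme.

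RNA was measured in whole mouse gonads at embryonic day 11.5, around the time at which the Y-linked gene Sry is switched on in XY gonads. Wild type and Kdm6b-null embryos of either sex gave 4 groups of 2 libraries, and every library was made from 2 pooled pairs of gonads. Kdm6b encodes a histone demethylase that removes the repressive H3K27 methyl mark; the labels call the mutant a Kdm6b knockout and give neither the allele nor the strain. No animal was treated. A cell type tag in the labels reads pre-granulosa (XX) or pre-Sertoli (XY), but the tissue tag is gonad and no protocol mentions sorting. The gonadal genes Gata4, Nr5a1 and Wt1 were measured in all 8 libraries, as were markers of endothelium, erythroid cells, macrophages, germ cells and mesonephric duct, so the values are those of mixed tissue. In such tissue fewer cells of a type and less RNA per cell cannot be told apart.

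To judge from the smallest step between the values of each library, read as 1 count, libraries held 19107103 to 19828638 counts on genes. Values below are the authors' normalized counts (counts divided by a size factor per library) unless a scale is named. Kdm6b, the targeted gene, measured 2218 and 2796 in wild type and 1249 and 1125 in null XX libraries, and 3399 and 3181 in wild type and 1238 and 1037 in null XY libraries. Transcript thus remained in the null libraries, and every null library lay below the wild type libraries of its sex. Over both sexes Kdm6b fell by 1.30 on the log2 scale (SE 0.12, limma adjusted p 0.022, or 0.0053 to 0.26 over the alternatives run). Fitted with limma in each sex alone it did not pass, with -1.54 in XY (limma adjusted p 0.12) and -1.07 in XX (adjusted p 0.19). In the authors' deposited DESeq2 results it passed in each sex, at -1.53 in XY (adjusted p 8.2e-25) and -1.08 in XX (adjusted p 7.1e-07). Without the first XX wild type library the XX limma value was -1.24, and without the second it was -0.90. The XX wild type pair was the least alike of the 4 replicate pairs, with a correlation of log2 values across genes of 0.9632 against 0.9797 to 0.985 for the other pairs. The first XX wild type library carried adrenal cortex markers at a summed 127.8 CPM (counts scaled to a common library total), against 19.7 to 33.1 in the other 7 libraries. The second had the lowest summed level of mesonephric tubule and duct markers, 146.7 CPM against 232.7 to 366.4. For several genes named below the XX fold change is therefore also given without each of these libraries, or as a range over leaving out each library. A fit without 1 of these libraries leaves 1 wild type library. Its error then rests on the null pair and on other genes, so a pass in it is not read as a result. Separate pools are the replicates, and with 2 per group each value below rests on few samples.

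No feedback target passed the test in any of the 4 comparisons made with limma, at an adjusted p of 0.05 over all genes. By unadjusted limma p, Spry4 came first, lower over both sexes (p 0.0069) and in XX (p 0.0096), then Etv4, lower in XX (p 0.026). By size the first was Etv4 in XX, with a log2 fold change of -0.79. Dusp6, Spry1, Spry2, Spred1 and Il17rd had log2 fold changes between -0.09 and 0.18 in either sex. The same test found 0% of all genes in XY (16821 tested), 0% in XX (17028 tested), 0% for the difference between the sexes and 0.0118% for the effect common to both sexes, which were 2 of 16943 genes, Kdm6b and Kdm6bos, an opposite strand transcript named after it. At an unadjusted p under 0.05 the counts of all genes were 834 in XY and 2383 in XX. By the authors' deposited tables, which hold their DESeq2 results, 0.402% of genes in XY and 2.77% in XX passed an adjusted p of 0.05, and no feedback target was among them.

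**Figure D1:**
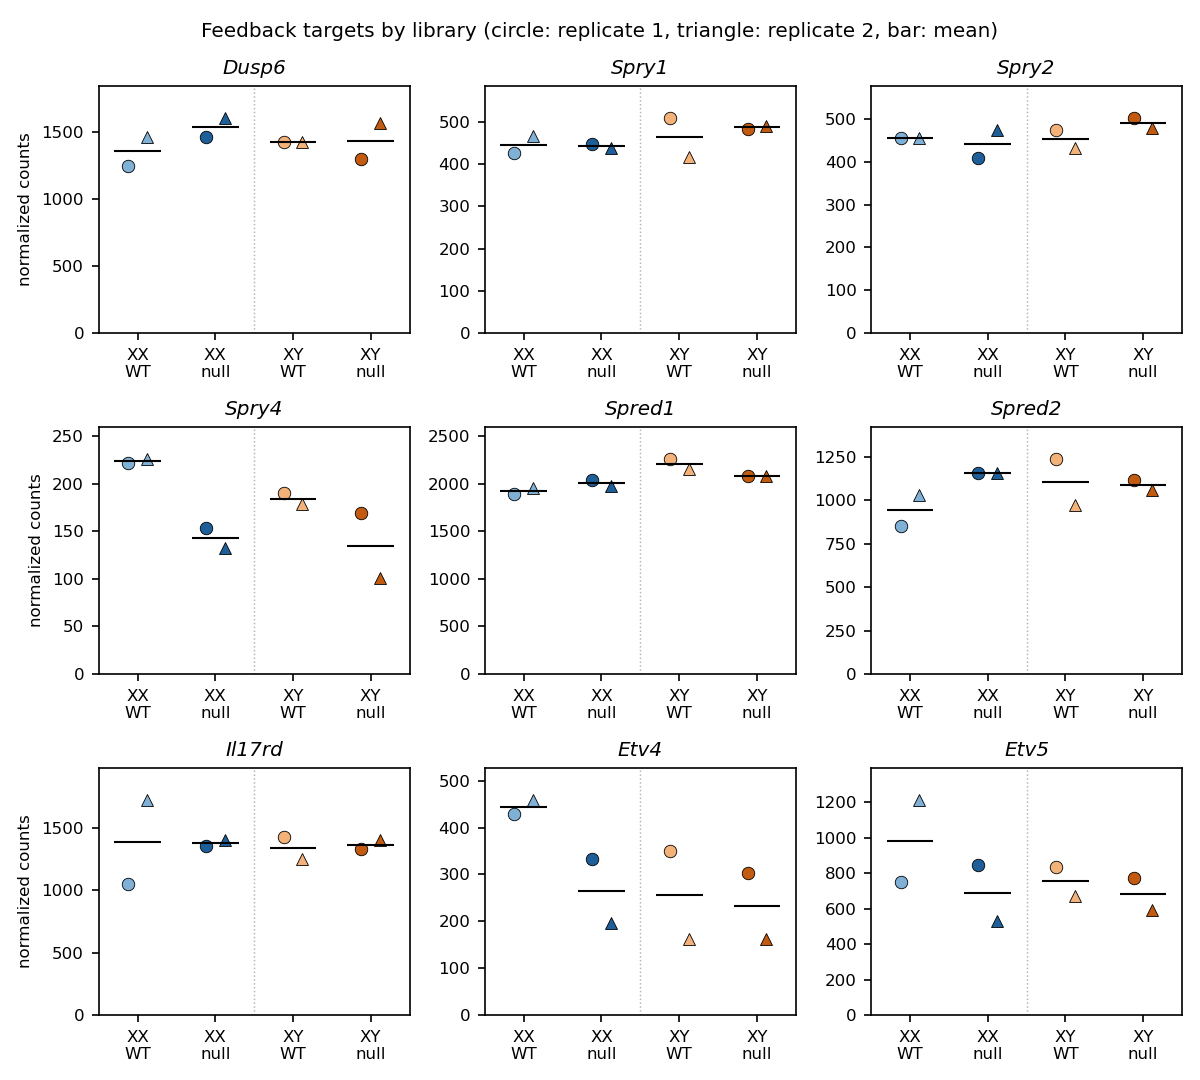
Normalized counts of the 9 feedback targets (y axes, starting at 0) in each of the 8 libraries, grouped along the x axes by sex and genotype (WT, wild type). Circles are replicate 1, triangles replicate 2 and bars the mean of the pair; both Spry4 null points lie below the wild type points in XX and in XY, while Etv4 is split widely within both XY groups.

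Dusp6 encodes a cytoplasmic phosphatase that removes the activating phosphates from ERK itself. It measured 1249 and 1463 in wild type and 1465 and 1603 in null XX libraries, and 1429 and 1429 in wild type and 1300 and 1568 in null XY libraries. In XX both null values lay above both wild type values, the nearest of them barely, and in XY the null values lay on either side of the wild type pair. The log2 fold change was 0.18 in XX (SE 0.12, 95% interval -0.12 to 0.48, limma adjusted p 0.52) and -0.00 in XY (SE 0.11, -0.27 to 0.27, adjusted p 1.0). Per kilobase of exon, Dusp6 had the highest level of the 9 genes, a mean of 23.2 CPM per kb over the 4 wild type libraries. Its gene (ENSMUSG00000019960.7) lies on the plus strand at chr10:99263231-99267488 of GRCm38.

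The Sprouty genes encode membrane-bound inhibitors that act between the receptor and RAF. Spry1 (ENSMUSG00000037211.12) lies at chr3:37639947-37644598 on the plus strand, Spry2 (ENSMUSG00000022114.4) at chr14:105891949-105896819 on the minus strand, and Spry4 has the identifier ENSMUSG00000024427.6. Spry4 measured 221.2 and 225.6 in XX wild type and 153.5 and 132.3 in XX Kdm6b-null libraries. In XY it measured 189.9 and 178.4 in wild type and 168.7 and 100.9 in Kdm6b-null libraries. Every null library lay below both wild type libraries of its sex, with a narrow gap in XY between the first null library and the second wild type library. Group means were 223.4 ± 3.09 and 142.9 ± 14.9 in XX, and 184.2 ± 8.12 and 134.8 ± 48.0 in XY (wild type, then Kdm6b-null; SD, n = 2). Spry4 was the only one of the 9 genes to lie lower in the null libraries of both sexes with no overlap, a pattern that 4.97% of 16567 genes showed. No member lay higher in both sexes in this way, against 6.37% of genes.

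The Spry4 log2 fold change was -0.64 in XX (SE 0.16, 95% interval -1.06 to -0.23, p 0.0096, adjusted p 0.27, limma) and -0.49 in XY (SE 0.27, -1.17 to 0.19, adjusted p 1.0). Taken over both sexes it was -0.57 (SE 0.16, -0.94 to -0.20, p 0.0069, adjusted p 0.34, limma), lower in 4 of 4 null libraries. The difference between the sexes was 0.15 (SE 0.34, -0.63 to 0.94), an interval that spans effects of either order. Without the second XY Kdm6b-null library the XY value shrank to -0.12, and without the first it was -0.86, so 1 library sets the size in XY. In XX the value stayed between -0.75 and -0.54 whichever library was left out. The XX value of Spry4 in the authors' deposited table was -0.64, at an adjusted p of 0.26.

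Spry1 and Spry2 behaved otherwise. Spry1 measured 425.9 and 466.3 in wild type and 446.4 and 438.4 in null XX libraries, and 508.5 and 417.7 in wild type and 482.8 and 491.0 in null XY libraries. The null pair lay inside the wild type range in both sexes. Spry2 measured 456.9 and 457.2 in wild type and 408.6 and 473.8 in null XX libraries, and 475.8 and 431.7 in wild type and 502.3 and 478.6 in null XY libraries. Its null values straddled the wild type pair in XX and lay just above it in XY. Over both sexes the limma log2 fold change was 0.03 for Spry1 (SE 0.08, 95% interval -0.16 to 0.23) and 0.03 for Spry2 (SE 0.08, -0.16 to 0.22). These intervals leave out a change of the size estimated for Spry4. The Spry2 value turned to -0.004 when libraries were scaled to their totals.

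Spred1 and Spred2 encode Sprouty-related inhibitors that bring the RAS-inactivating protein neurofibromin to the membrane. They lie on plus strands, Spred1 (ENSMUSG00000027351.14) at chr2:117121374-117182279 and Spred2 (ENSMUSG00000045671.17) at chr11:19924375-20024026. Spred1 measured 1896 and 1960 in wild type and 2039 and 1980 in null XX libraries, and 2258 and 2154 in wild type and 2078 and 2081 in null XY libraries. It lay slightly higher in the XX null pair and slightly lower in the XY null pair, each with no overlap. The log2 fold changes were small, 0.06 in XX (SE 0.09) and -0.09 in XY (SE 0.07), and the XX value turned to -0.005 when libraries were scaled to their totals. The difference between the sexes was -0.14 (SE 0.10, 95% interval -0.39 to 0.10, limma adjusted p 0.73).

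Spred2 measured 853.7 and 1032 in XX wild type and 1155 and 1156 in XX Kdm6b-null libraries, with no overlap. In XY it measured 1237 and 973.0 in wild type and 1117 and 1061 in Kdm6b-null libraries, where the null pair lay between the wild type values. The log2 fold change was 0.30 in XX (SE 0.12, 95% interval -0.01 to 0.61, limma adjusted p 0.37) and -0.01 in XY (SE 0.13, -0.33 to 0.31). Without the second XX wild type library the XX value was 0.44, and without the first it was 0.16. The size in XX thus turned on which wild type library was kept.

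Il17rd encodes Sef, a transmembrane inhibitor of FGF receptor signalling (ENSMUSG00000040717.5, chr14:27039001-27107286, plus strand). It measured 1054 and 1722 in wild type and 1357 and 1402 in null XX libraries, and 1429 and 1249 in wild type and 1329 and 1402 in null XY libraries. Both null pairs lay between the wild type values of their sex, and the XX wild type pair was spread more widely than any other pair of this gene. The log2 fold change was 0.03 in XX (SE 0.23, 95% interval -0.56 to 0.63) and 0.03 in XY (SE 0.09, -0.21 to 0.27). Leaving out the second XX wild type library gave 0.39, and leaving out the first gave -0.32, which is a change of sign.

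Etv4 and Etv5 encode ETS transcription factors of the PEA3 group, which carry the ERK signal to their own target genes. Both lie on minus strands, Etv4 (ENSMUSG00000017724.14) at chr11:101769742-101785371 and Etv5 (ENSMUSG00000013089.15) at chr16:22381309-22439719. Etv4 measured 428.8 and 458.2 in XX wild type and 331.8 and 196.0 in XX Kdm6b-null libraries. In XY it measured 349.2 and 162.5 in wild type and 303.4 and 161.6 in Kdm6b-null libraries. The XX groups did not overlap, whereas in XY each group held one high and one low library. Group means were 443.5 ± 20.8 and 263.9 ± 96.1 in XX, and 255.9 ± 132.0 and 232.5 ± 100.2 in XY (wild type, then Kdm6b-null; SD, n = 2). The log2 fold change was -0.79 in XX (SE 0.26, 95% interval -1.46 to -0.13, p 0.026, adjusted p 0.32, limma) and -0.11 in XY (SE 0.45, -1.23 to 1.02). The sexes differed by 0.69 (SE 0.60, -0.71 to 2.09, limma adjusted p 0.77), so a difference between them was not shown. In XX, the value was -1.17 without the first null library and -0.42 without the second.

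Etv5 measured 751.9 and 1213 in XX wild type and 847.0 and 529.4 in XX Kdm6b-null libraries. In XY it measured 835.9 and 673.9 in wild type and 774.5 and 592.9 in Kdm6b-null libraries. Groups overlapped in both sexes, and the second null library was the lowest of its sex in each. The log2 fold change was -0.51 in XX (SE 0.31, 95% interval -1.29 to 0.27, limma adjusted p 0.49) and -0.15 in XY (SE 0.17, -0.57 to 0.28). The XX value ranged from -0.86 to -0.17 as each library was left out.

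**Figure D2:**
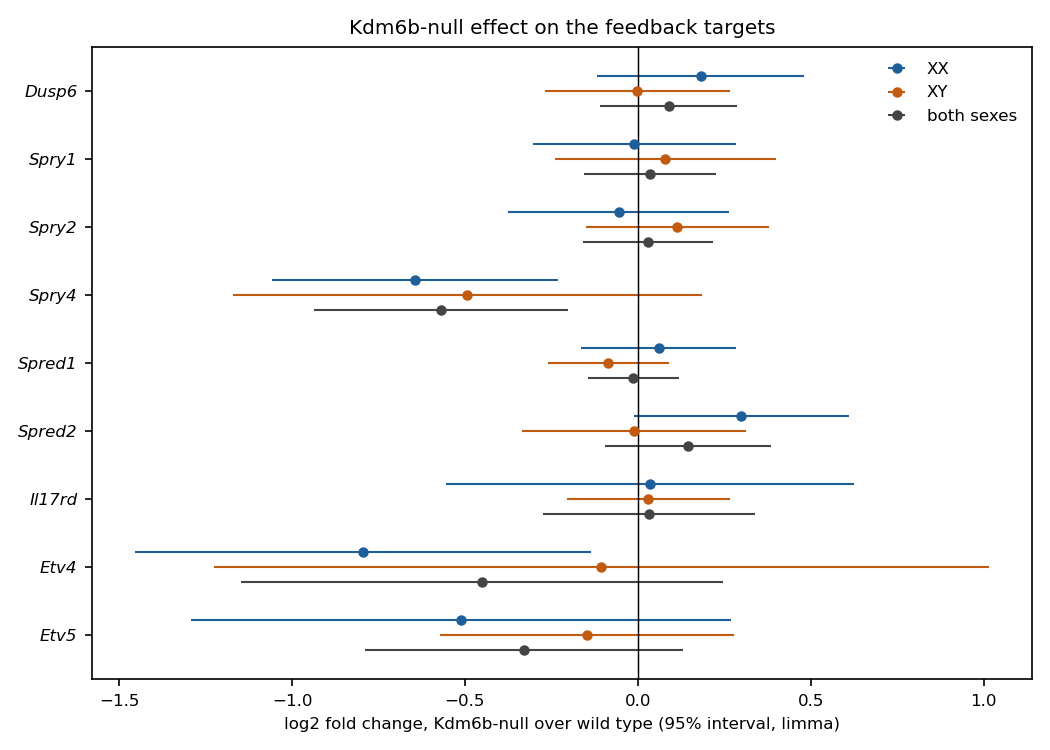
Log2 fold change of Kdm6b-null over wild type (x axis) for each feedback target (y axis), in XX, in XY and over both sexes; points are limma estimates and lines 95% intervals. The Spry4 interval lies below 0 in XX and over both sexes, the Etv4 interval in XX only, and all other intervals include 0; none of these passed adjustment over all genes.

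Counted together, 3 of the 9 genes had null and wild type libraries that did not overlap in XY (Spry2 higher, Spry4 and Spred1 lower), against 32.9% of all genes (16.6% higher and 16.3% lower). In XX 5 of 9 did not overlap (Dusp6, Spred1 and Spred2 higher, Spry4 and Etv4 lower), against 49.5% of all genes (27% higher and 22.5% lower). At an unadjusted limma p under 0.05 no member was found in XY, against 4.96% of genes, and 2 were found in XX, against 14% of genes. Both of these lay lower, as did 4.65% of all genes at that p. Over both sexes 1 was found, Spry4, against 12.1% of genes in either direction and 5.1% that lay lower, and none was found for the difference between the sexes, against 8.41%. The median log2 fold change of the 9 genes was -0.01 in XX and -0.01 in XY, beside medians of 0.00 over all genes in each sex. The medians of the list thus lay near those of all genes, and Spry4, Etv4 and Etv5 stood at its low end in both sexes.

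Within each wild type pair, however, all 9 genes leaned the same way by normalized counts. All 9 were higher in the second than in the first XX wild type library, where 53.6% of all genes were. All 9 were higher in the first than in the second XY wild type library, where 49.7% of all genes were. The XX lean depended on the scale. As CPM, Spry2 (24.6 and 23.5), Spry4 (11.9 and 11.6) and Spred1 (102.2 and 100.8) were lower in the second XX wild type library. The XY lean held as CPM. These counts were made after the values were seen, and the members share their libraries. The sizes ranged widely, from nearly equal values of Spry2 in XX and Dusp6 in XY to the Etv4 pair in XY. The Kdm6b-null pairs showed no such lean, with 5 genes higher in the first library and 4 in the second in each sex. In the null pairs the 3 genes with the largest drop were nonetheless the same: Spry4, Etv4 and Etv5 were lower in the second than in the first null library of both sexes.

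**Figure D3:**
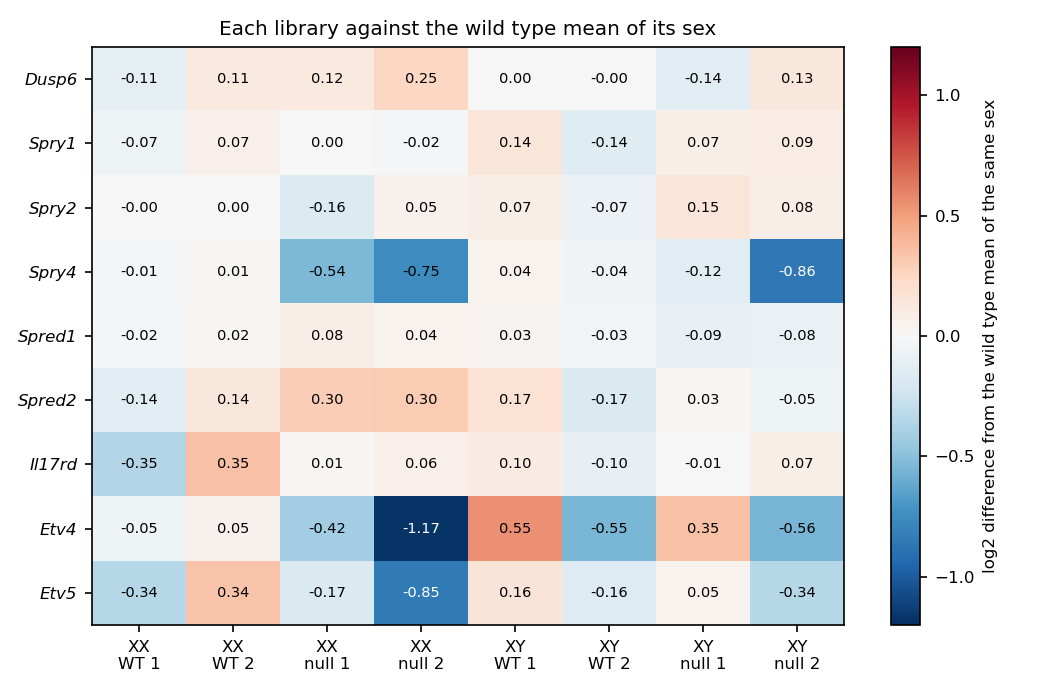
Heat map of the log2 difference of each library (columns) from the wild type mean of its sex, for each feedback target (rows); red is higher and blue lower, and the number is printed in each cell. The darkest blue cells are Etv4 (-1.17) and Etv5 (-0.85) in the second XX Kdm6b-null library and Spry4 (-0.86) in the second XY Kdm6b-null library.

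Across the 8 libraries, with the mean of each sex taken off, Etv4 and Etv5 varied most alike, with r = 0.81. Spry4 followed both, with r = 0.75 to Etv4 and r = 0.70 to Etv5. Dusp6 ran the other way, with r = -0.72 to Spry4 and r = -0.68 to Etv4, and Spred1 and Spred2 formed another like pair at r = 0.69. Of the 36 pairs 25 were positive, and the median r was 0.19. These values describe 8 libraries that include the genotype difference, and points share library, depth and dissection. Among 13037 genes, those most like the mean profile of the 9 were Ctdspl2 (r = 0.99), Spred3, a further Sprouty-related inhibitor (r = 0.97), Zfp280d (r = 0.96), Erbb3, a neuregulin receptor (r = 0.96), and Pitx1 (r = 0.96). These are the highest of many values over 8 libraries: 31 genes had r over 0.9, and the lowest r was -0.98. Members were averaged without scaling, so those that varied most, such as Etv4 and Etv5, weighed most in the profile.

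The promoter of Etv5 at its inner start and that of Dusp6 are printed because these genes varied in different ways over the libraries (r = -0.37) while both windows hold the same short motif. Sequences are from RefSeq on GRCm38.p6, the 250 bases before the start, 5′ to 3′ on the strand of the gene. Capitals mark GGAA, the core of ETS sites, and TGAATG, the first letters of the site TGAATGAA of Capicua, a repressor that ERK inactivates; both were searched on both strands (TTCC and CATTCA on the printed strand), and in Etv5 one GGAA directly adjoins a TGAATG. The Dusp6 stretch is chr10:99262981-99263230 on the plus strand and the Etv5 stretch is chr16:22438369-22438618 on the minus strand, within the Etv5 gene.
Dusp6: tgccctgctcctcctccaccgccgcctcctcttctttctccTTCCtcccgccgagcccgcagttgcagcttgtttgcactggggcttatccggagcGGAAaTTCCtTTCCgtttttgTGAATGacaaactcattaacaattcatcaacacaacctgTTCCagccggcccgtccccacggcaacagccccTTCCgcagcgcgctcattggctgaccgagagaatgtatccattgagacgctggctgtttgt
Etv5: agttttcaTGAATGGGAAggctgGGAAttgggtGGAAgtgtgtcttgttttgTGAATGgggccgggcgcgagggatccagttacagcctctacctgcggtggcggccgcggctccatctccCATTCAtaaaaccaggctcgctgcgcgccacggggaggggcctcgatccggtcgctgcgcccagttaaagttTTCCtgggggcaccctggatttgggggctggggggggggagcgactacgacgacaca
Windows of 300 bases (250 before and 50 after the start) were found for 7 of the 9 genes, but not for Spry4 and Etv4. There were 8 windows in all because Etv5 has 2 starts. TGAATG was in 2 of these 8 windows and in 12.7% of all 32851 promoter windows. The Etv5 window held 3 matches, a number reached by 0.17% of all windows, and the Dusp6 window held 1. TGAATG was chosen after these sequences were seen. GGAA was in 7 of 8 windows and in 96.0% of all, so most promoters share it. The longer ETS letters CCGGAAGT were in none of the 8 (3.89% of all), as were TGACGTCA (1.79%), TGANTCA (7.81%) and TGAATGAA (1.3%), which overlaps TGAATG. The windows of these genes were rich in CpG, with an observed over expected CpG ratio of 0.701 to 1.03 beside a median of 0.384 over all windows. A match in letters is a description of the sequence and shows no binding.

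Levels between genes were compared per kilobase of exon over the 4 wild type libraries. Dusp6 stood first at 21.5 to 24.0 CPM per kb, above Spred1 at 14.9 to 17.3, with no overlap. Spred2 (9.96 to 13.9), Spry2 (10.6 to 11.8) and Etv5 (8.44 to 15.2) overlapped one another, and Etv5 also overlapped Spred1. Spry1 (7.38 to 9.08), Il17rd (5.17 to 8.06) and Etv4 (2.69 to 7.59) followed with overlapping ranges between neighbours. Spry4 was lowest at 1.93 to 2.51, below every library of every other member. XX and XY were normalized in separate tables, so levels between the sexes are given as CPM of each library's own total and were not tested. Spry4 stood at 11.9 and 11.6 CPM in XX wild type and at 9.86 and 9.17 CPM in XY wild type libraries, and Etv4 at 23.1 and 23.6 CPM in XX and 18.1 and 8.35 CPM in XY.

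Upstream of the feedback targets, the FGF ligands were low. Of 18 ligands 9 were kept in XY and 8 in XX. None passed the limma test in either sex, and 3 lay higher and 6 lower in XY (median log2 fold change -0.11), and 2 higher and 6 lower in XX (median -0.62). Fgf9 measured 137.8 and 202.3 in wild type and 68.8 and 85.9 in null XX libraries, and 111.8 and 57.8 in wild type and 78.0 and 82.3 in null XY libraries. The XX groups did not overlap, and in XY the null pair lay between the wild type values. Its log2 fold change was -1.11 in XX (SE 0.26, limma adjusted p 0.26) and -0.01 in XY (SE 0.35). The XX value ranged from -1.38 to -0.83 as each library was left out. Fgf1 had log2 fold changes of -1.43 in XX (SE 0.52) and 1.24 in XY (SE 0.34), with a difference of 2.66 (SE 0.68, limma adjusted p 0.57). Without the second XX wild type library the XX value of Fgf1 was -2.01, and without the first it was -0.84.

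With all libraries, none of the FGF receptors passed the limma test. Of the 6 kept in XX 5 lay higher in the null libraries (median log2 fold change 0.32), and of the 5 kept in XY 4 did (median 0.06). Fgfr3 measured 391.0 and 456.2 in XX wild type and 679.6 and 739.5 in XX Kdm6b-null libraries, with no overlap, and 492.6 and 663.9 against 653.5 and 584.6 in XY. Its XX log2 fold change was 0.75 (SE 0.13, limma adjusted p 0.26), and Fgfrl1, a receptor without a kinase domain, had 0.66 (SE 0.14, adjusted p 0.26). Without the first and the second XX wild type library, Fgfr3 was 0.63 and 0.86, and Fgfrl1 was 0.50 and 0.82. In the authors' deposited XX table both passed, Fgfr3 at 0.74 (adjusted p 0.011) and Fgfrl1 at 0.65 (adjusted p 0.019). Fgfr1 was the most abundant at a mean of 4777 over 8 libraries, with 0.20 over both sexes (SE 0.06, limma adjusted p 0.35). In XX it had 0.27 (SE 0.09, limma adjusted p 0.33), or 0.25 to 0.30 as each library was left out. Over both sexes Fgfr2 had 0.04 (SE 0.08).

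The adaptors and the RAS, RAF, MEK and ERK genes gave 18 of 19 higher in XX null libraries (median log2 fold change 0.19) and 7 of 19 higher in XY (median -0.01), with none past the limma test with all libraries. Sos1, a RAS activator, had 0.39 in XX (SE 0.12, limma adjusted p 0.30), or 0.27 to 0.51 as each library was left out. Scaling to library totals moved the median of all genes in XX to -0.06 and the share of genes higher from 50.1% to 41.2%, so small XX values are relative to that choice. Under it, 15 of 19 cascade genes lay higher in XX (median 0.12), and 2 of the 9 feedback targets did in place of 4. Mapk3, which encodes an ERK kinase, had a log2 fold change of -0.03 (SE 0.11) in XX and -0.06 (SE 0.07) in XY. Other brakes on RAS and ERK lay higher in 15 of 17 in XX (median 0.15; 12 of 17 and 0.084 when scaled to library totals) and in 5 of 17 in XY (median -0.04). Cblb, a ubiquitin ligase for receptors, had 0.56 in XX (SE 0.13, limma adjusted p 0.26), or 0.41 and 0.71 without the first and the second wild type library. Rasa3, a RAS-inactivating protein, had 0.35 in XX (SE 0.10, limma adjusted p 0.29), or 0.30 to 0.40 as each library was left out. The authors' deposited XX table gave 0.55 for Cblb at an adjusted p of 0.036.

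**Figure D4:**
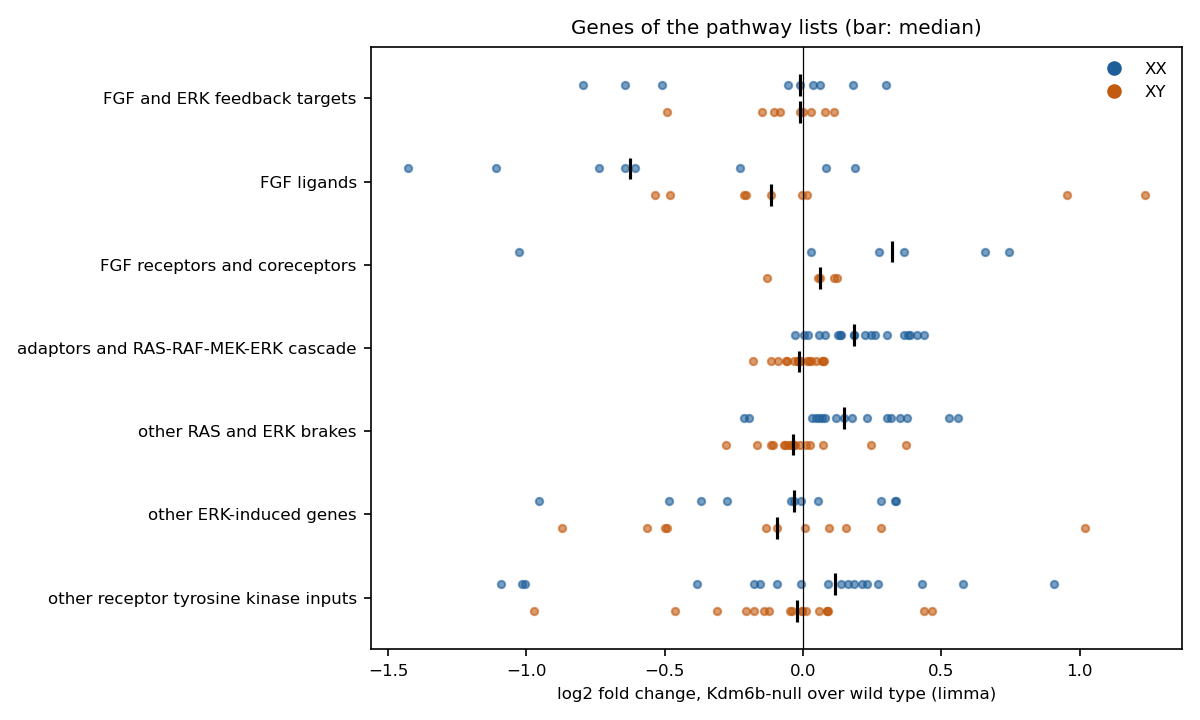
Log2 fold change of Kdm6b-null over wild type (x axis, limma) of every kept gene in the pathway lists (y axis), in XX (blue) and XY (orange); black bars are list medians. The feedback targets have medians of -0.01 in both sexes, while receptors, cascade genes and other brakes have medians above 0 in XX (0.32, 0.19 and 0.15).

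Of 11 other genes that ERK induces, 4 lay higher and 7 lower in XX and 5 higher and 6 lower in XY. Ccnd1, which encodes the G1 cyclin D1, measured 3065 and 2977 in wild type and 2114 and 2199 in null XX libraries, and 2784 and 2781 in wild type and 1828 and 2124 in null XY libraries. Every null library lay below both wild type libraries of its sex. Its log2 fold change was -0.49 over both sexes (SE 0.06, limma adjusted p 0.11), close in size to that of Spry4 and with a smaller error. In XX it was -0.47 without the first wild type library and -0.51 without the second. In the authors' deposited tables Ccnd1 fell in both sexes, with log2 fold changes of -0.49 in XX (adjusted p 0.012) and -0.49 in XY (adjusted p 0.030). Egr1, an immediate early transcription factor, had -0.76 over both sexes (SE 0.23, limma adjusted p 0.35). In XX it had -0.96 (limma adjusted p 0.29), or -1.27 to -0.64 as each library was left out. Fos, another immediate early factor, measured 22.8 and 30.9 in wild type and 59.5 and 50.4 in null XY libraries. Both null values of Fos lay above the wild type pair, with a log2 fold change of 1.02 (SE 0.30, limma adjusted p 0.86).

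Other receptor tyrosine kinases also feed ERK, and 10 of 18 of these genes lay higher in XX (median log2 fold change 0.11) and 7 of 18 in XY (median -0.02), with none past the limma test with all libraries. In XX, Kit had 0.91 (limma adjusted p 0.22), or 0.77 and 1.05 without the first and the second wild type library. Erbb2 had 0.43 in XX (limma adjusted p 0.26), or likewise 0.41 and 0.45. In the authors' deposited tables Kit rose (0.90, adjusted p 3.6e-05), Erbb2 rose (0.43, adjusted p 0.048) and Egfr fell (-1.04, adjusted p 0.0078) in XX, and Kitl, the Kit ligand, fell in XY (-0.46, adjusted p 0.039). Gdnf, a ligand of the receptor Ret, and its coreceptor Gfra1 varied over the libraries like the Etv genes. Gdnf measured 148.4 and 292.3 in wild type and 190.3 and 49.5 in null XX libraries, and 174.1 and 65.8 in wild type and 183.4 and 15.4 in null XY libraries. Gfra1 measured 710.2 and 909.4, 554.1 and 284.9, 500.6 and 204.4, and 562.8 and 347.9 in the same order. Gdnf was lowest in the second null library of each sex, the libraries in which Spry4, Etv4 and Etv5 were also lowest of their sex. In XY, however, Etv4 was nearly as low in the second wild type library (162.5 against 161.6). Gfra1 was lowest in the second null library in XX, but in XY in the second wild type library.

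Centred by sex over the 8 libraries, Etv4 had r = 0.92 to Gfra1 and r = 0.86 to Gdnf, and Spry4 had r = 0.83 to Gdnf. Etv5 had r = 0.91 to Fgf10, an FGF of mesenchyme, and r = 0.91 to Erbb3. To Fgf9 the values were r = 0.67 for Etv4 and r = 0.61 for Etv5, and to Ret r = 0.30 and r = 0.60. Gfra1 and Gdnf for Etv4, Gdnf for Spry4, and Erbb3 and Fgf10 for Etv5 had the highest r of the 28 input genes set against each member, and these pairs were picked after the values were seen. All are descriptions over 8 libraries of mixed tissue.

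**Figure D5:**
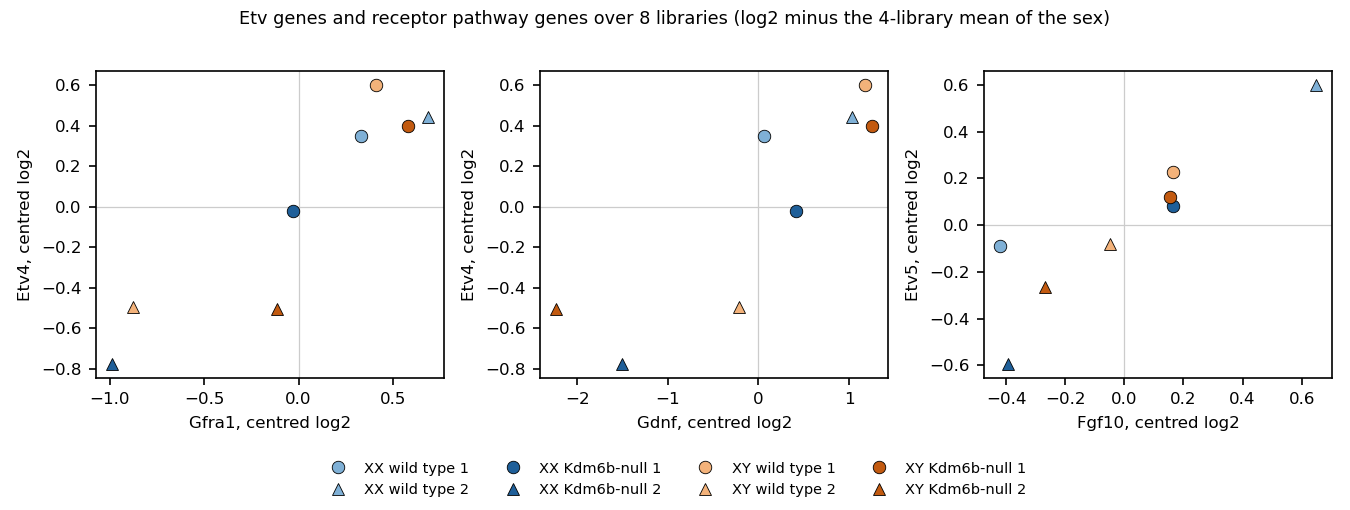
Etv4 or Etv5 (y axes) against Gfra1, Gdnf and Fgf10 (x axes), as log2 values minus the mean of the 4 libraries of the sex; each point is 1 of 8 libraries, coloured by group, with circles for replicate 1 and triangles for replicate 2. Libraries with low Gfra1 or Gdnf had low Etv4 (r = 0.92 and 0.86), and wild type and null libraries lie along the same spread.

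Markers of other tissue and of supporting cells also leaned higher or lower in null libraries. In XX null libraries 8 of 9 mesonephric tubule and duct markers lay higher (median log2 fold change 0.52; summed 255.9 and 232.7 CPM against 251.8 and 146.7 in wild type), with no marker at 0. All 9 endothelial markers lay higher (median 0.40; 906.8 and 886.4 CPM against 641.3 and 676.0), also with none at 0. Of 12 erythroid markers 11 lay lower (median -0.70; 6296 and 5835 CPM against 10546 and 12965), again with none at 0. Of 7 adrenal cortex markers 6 lay lower (median -1.43; 25.9 and 30.3 CPM against 127.8 and 19.7), so the null sums lay between those of the wild type pair, with none at 0. In XY null libraries 8 of 9 supporting cell and testis markers lay lower (median -0.86, 6 of them at an unadjusted limma p under 0.05; 365.8 and 490.7 CPM against 531.0 and 572.3), with none at 0. Of 11 macrophage markers 9 lay higher in XY (median 0.44; 165.7 and 177.0 CPM against 131.1 and 136.6), with none at 0. In XY the second null library, where Spry4 was lowest, had the highest erythroid sum of its sex, 10990 CPM against 3225 to 5430, and none of its markers was at 0. The summed duct markers were also highest there, 366.4 CPM against 255.4 to 327.0 in the other XY libraries, as were the 5 coelomic epithelium markers, 280.1 CPM against 179.7 to 223.9. Of 9 neural crest and neuron markers 8 lay lower in XX (median -0.30) and 7 in XY (median -0.21), with none at 0. Their median log2 difference from the wild type mean was lowest in the second null library of each sex. It was -0.41 there in XX and in XY, against -0.08 and -0.004 in the first null library. By summed level the second null library was lowest in XX only (173.3 CPM, against 208.1 in the first). In XY the null sums were nearly equal, 183.2 CPM in the first and 184.6 CPM in the second. Several lists leaned the opposite way in the other sex. In XY 8 of 9 endothelial markers lay lower (median -0.22) and 11 of 12 erythroid markers lay higher (median 0.45). In XX 10 of 11 macrophage markers (median -0.27) and all 5 coelomic epithelium markers (median -0.26) lay lower. Of 8 supporting cell and testis markers kept in XX, 7 lay higher (median 0.28). The part of all these markers in the values of the feedback targets was not tested.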

How the data were processed

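Polyadenylated RNA was sequenced as paired 100-base reads, per the labels' protocols. Per the submitters' processing notes, the authors' build was GRCm38 and their tools included STAR 2.7.11, cutadapt 4.9, DESeq2 2.11.40.8 and featureCounts 2.0.8; strand and multimapping settings: not given in the sources used here. As signal, the authors deposited normalized counts (to judge from the values and column names, featureCounts counts divided by a size factor per library), XX and XY in separate tables. The authors' deposited comparisons hold a log2 fold change, a p-value and a Wald score (not used); columns of the headerless XX table were identified from the XY table.

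Here limma 3.58.1 (R 4.3.3) was fitted to log2(normalized count + 1) with a variance trend, on genes with a mean of at least 10, with Benjamini-Hochberg adjustment over all genes kept at 0.05. Fold changes on this scale understate low genes. Each sex was fitted alone; the difference between sexes and the effect common to both used all 8 libraries. A test of counts had been foreseen if the files held them; they hold normalized values, so no count model was run. Tested on simulated data with 100 genes changed 2-fold, the fits recovered 99% in XY, 96% in XX, 81% for the difference and 100% for the common effect, with 5, 2, 6 and 9 false calls. A further 100 genes were changed 4-fold, and all changed genes had a mean of at least 100. Every simulated library had 1 fixed spread, meant to be like the XY wild type pair (replicate correlation 0.9835). The XX wild type pair (0.9632) and the XY null pair (0.9797) were less alike, so these shares do not give the power with the real libraries. With the real libraries Kdm6b itself did not pass the limma test in either sex alone. Errors are SD or SE over libraries; intervals are 95%. A value of 0 allows 3 counts, worth 2.91 to 3.09 normalized counts per library (counting error only); counts were inferred by reading the smallest step of a library as 1 count, of which every value was a whole multiple (within 1e-06). Alternatives were other pseudocounts, filters and scalings, no trend, a replicate block and leaving out each library.

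The members, the lists (187 of 188 genes matched) and the alternatives were chosen with earlier results of these data known. Named were all members, Kdm6b, Fgf9, Fgfr1, Fgfr2 and Mapk3, and in each other pathway list up to 4 genes past the threshold or the 2 with the smallest p. Only part of these are described, and 1 gene named whatever its result is not reported here; genes called in the authors' tables, and Gdnf, Gfra1, Ret, Fgf10 and Kdm6bos, were named after their values were seen. Genes most like the members needed a mean of at least 50 in both tables. Coordinates come from the deposited tables, exon lengths from GENCODE M21 and promoters from RefSeq. Protein sequences were not used here. Python 3.11.15 with pandas 2.3.3 and matplotlib 3.10.9 drew the figures.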

Additional observations from a re-analysis of the deposited data

How the results depend on the processing

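Of 504 alternative values of the 9 genes, 466 kept their direction and side of the threshold and 36 changed sign. The other 2, Spred2 and Il17rd in XX, kept their direction in the fit that leaves only the first XX wild type library. Its p is not read as a result. Spry4 lay lower in XX, in XY and over both sexes in all alternatives run, without passing the limma threshold (adjusted p 0.068 to 0.97 in XX, 0.50 to 1.0 in XY and 0.19 to 0.80 over both sexes). Etv4 in XX also lay lower in all alternatives run.

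Scaled to library totals, log2 fold changes turned to -0.0052 for Spred1, -0.030 for Il17rd and -0.037 for Fgfr2 in XX, to 0.060 for Il17rd and 0.030 for Mapk3 in the difference between sexes, and to -0.0037 for Spry2 and -0.00047 for Il17rd over both sexes. The median of the 9 genes became -0.075 in XX and 0.15 in the difference. Median centring turned the Il17rd difference to 0.013. In the authors' deposited tables Dusp6 in XY was 0.0047 and Il17rd in XX -0.0080. Calls over all genes became 1 in XY with no variance trend, 10 in XX with all 8 libraries in 1 fit, 1 over both sexes at a mean of at least 50, and 72 in XY and 407 in XX in the authors' deposited tables; the cause was not tested.

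Leaving out each library in turn gave 0 to 2 calls in XY, 0 to 3550 in XX (621 without the first and 3550 without the second XX wild type library), 0 to 43 in the difference (43 without the second XX wild type library) and 0 to 3 over both sexes; a lone library is then assumed to vary like the other groups. The median of the 9 genes ranged from -0.12 to 0.13 in XY, -0.076 to 0.055 in XX, -0.052 to 0.20 in the difference and -0.037 to 0.046 over both sexes. Some genes changed sign. Their ranges in XY were Dusp6 -0.14 to 0.13, Spry1 -0.062 to 0.22, Etv4 -0.65 to 0.44, Etv5 -0.34 to 0.045, Spred2 -0.18 to 0.16, Il17rd -0.067 to 0.13, Fgf9 -0.47 to 0.46, Fgfr2 -0.044 to 0.16 and Fgfr3 -0.10 to 0.33. In XX they were Spry1 -0.076 to 0.055, Spry2 -0.16 to 0.052, Il17rd -0.32 to 0.39, Fgfr2 -0.11 to 0.16 and Mapk3 -0.13 to 0.075. In the difference between sexes they were Spry1 -0.052 to 0.23, Spry4 -0.22 to 0.52, Il17rd -0.36 to 0.35, Fgfr2 -0.10 to 0.17 and Mapk3 -0.14 to 0.070. Over both sexes they were Spry1 -0.031 to 0.082, Spry2 -0.016 to 0.089, Spred1 -0.037 to 0.015, Il17rd -0.11 to 0.17 and Fgfr2 -0.0065 to 0.10.

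The replicate block (same number in wild type and null of a sex) gave 23 calls in XY, 2 in XX, 0 in the difference and 0 over both sexes, and it brought no feedback target past the threshold. Deviations of same-numbered libraries from their group means correlated at -0.062 in XX and 0.25 in XY across genes. Over the 9 genes alone the values were -0.22 in XX and 0.67 in XY. With 2 pairs per sex and no label tying them, pairing was not established. Kdm6b over both sexes had a limma adjusted p of 0.083 under the block.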
